A study of Nothobranchius furzeri with 20 samples.

Results

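The 100 most abundant transcripts of turquoise killifish liver, 1 per gene identifier of 26739 in the count table, took 48.1% ± 4.70 of all counts (SD, n = 20 libraries). They were selected on abundance itself: CPM, counts scaled to a library total of 1000000, were averaged over the 20 libraries and the 100 highest were kept. The identifier Nfu_g_1_018732, which stood at rank 12 of that order, was left out, and ranks below are counted without it. Their shares, ranks and levels are therefore a description and carry no test. Fold changes between groups were not used to choose them. A transcript high in only 1 group could still enter through that group, so its fold change is not free of the selection.

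All fish were male Nothobranchius furzeri of strain MZM-04/10p, and the groups differed in age and in whether the fish had been exercised in a swim tunnel. There were 10 libraries of exercised fish at 27 weeks, 5 of exercised fish at 9 weeks and 5 of unexercised fish at 9 weeks. No unexercised 27-week group was analysed here, so exercise was compared at 9 weeks only, and age among exercised fish only. The 27-week libraries share the same labels but their titles fall in 2 runs of numbers, JM132 to JM136 (replicates 1 to 5, called run A here) and JM140 to JM144 (replicates 6 to 10, called run B). Nothing in the labels says what the runs are.

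The liver makes most of the proteins of blood plasma, among them lipid carriers, clotting factors and binding proteins, and it houses the enzymes of sugar, fat and amino acid metabolism. A small number of secreted proteins and enzymes therefore usually supplies a large part of its messenger RNA, together with transcripts that every cell uses, such as those of ribosomal proteins. In egg-laying fish the liver of females also makes the yolk precursors. None of the 100 identifiers matched the available RefSeq gene table of the species, so their products, their genome positions and the tissue's marker genes could not be read, and transcripts are called here by identifier or by abundance rank.

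Total counts ran between 22.4 and 44.6 M per library, and each of the 100 transcripts had counts in all 20 libraries. The lowest single value was 1909 counts, at which counting error alone is 2.29%. No 2 libraries of a set were copies of each other: over 40 pairs, chi-square divided by its degrees of freedom was at least 44.3. Whether every library came from its own fish is not stated in the labels, and p-values cover only the spread among the libraries. In a bulk sample, fewer cells of a type and less RNA per cell cannot be told apart, and this holds for every level below.

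The share of counts taken by the 100 transcripts differed most among the 27-week libraries. In 27-week run A it was 46.9, 46.9, 47.8, 36.5 and 36.8%. Run B held 51.3, 51.7, 51.7, 52.1 and 52.7%. At 9 weeks the exercised livers had 51.3, 50.8, 50.8, 50.9 and 48.2%, and the unexercised livers had 46.7, 44.0, 46.4, 52.6 and 45.5%. Replicates 4 and 5 at 27 weeks were lowest of all 20 libraries and lay apart from the other 3 libraries of their title run, while run B was the tightest set, at 51.9% ± 0.53 (SD, n = 5). Exercised and unexercised 9-week livers overlapped, because unexercised replicate 4 held the highest share at that age.

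**Figure D1:**
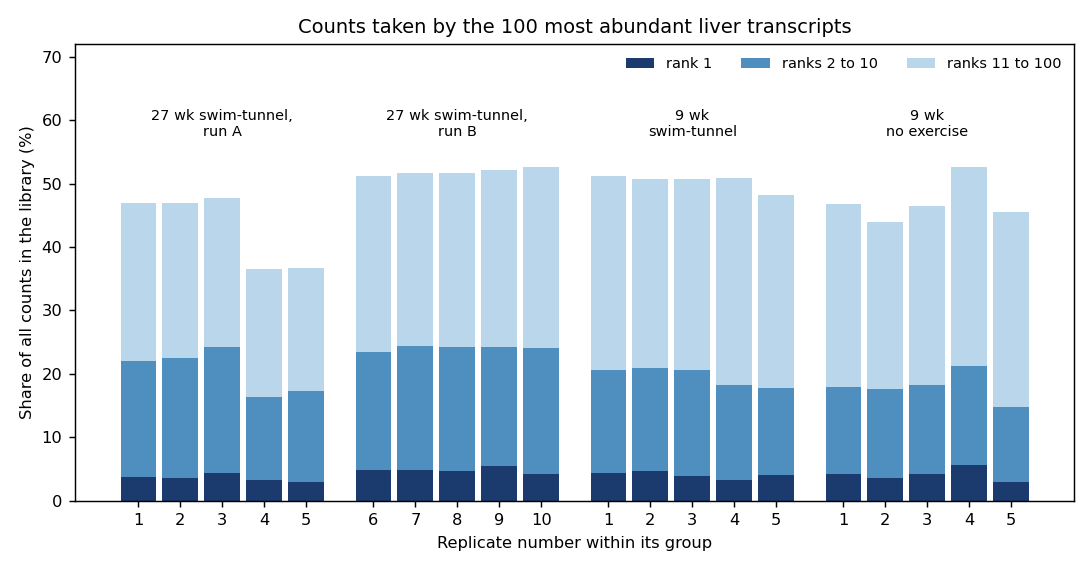
Percent of each library's counts taken by the 100 most abundant transcripts, 1 bar per library, divided into the rank 1 transcript, ranks 2 to 10 and ranks 11 to 100. Replicates 4 and 5 of the 27-week group reach 36.5 and 36.8%, and the 5 bars of run B lie between 51.3 and 52.7%.

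Counts were concentrated in the first few transcripts. The first 3 took 11.5% ± 1.75 of the counts in 27-week livers (SD, n = 10), against 8.78% ± 1.21 in exercised 9-week livers and 7.53% ± 1.58 in unexercised 9-week livers (SD, n = 5 each). The first 10 took 22.3% ± 2.98 in 27-week livers, 19.6% ± 1.5 in exercised 9-week livers and 17.9% ± 2.31 in unexercised 9-week livers. Between rank 1 and rank 100 the mean CPM, which counts reads and not molecules, differed 26.3-fold. The edge of the list was not a gap: the last transcripts inside averaged 1604 and 1574 CPM, and the first outside averaged 1538 and 1523 CPM.

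**Figure D2:**
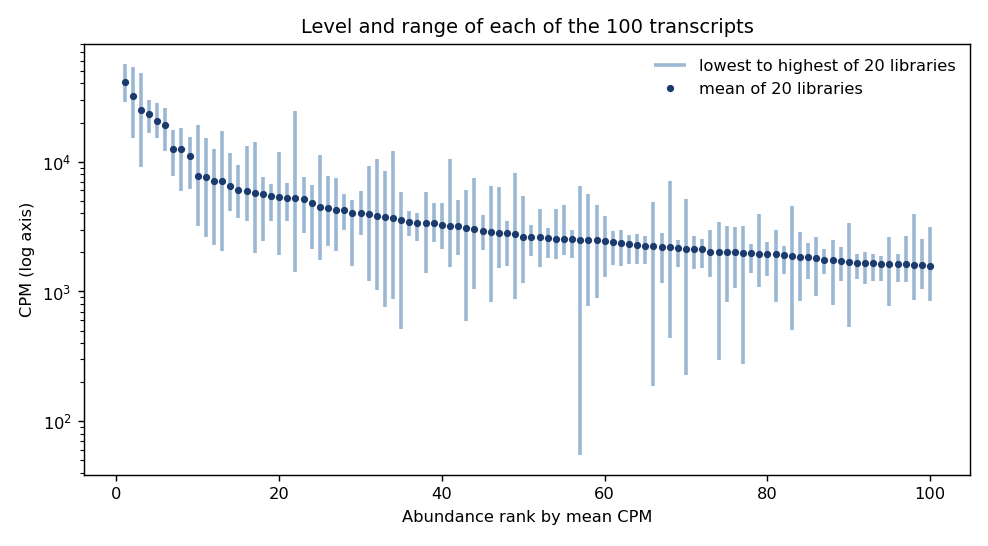
Points give the mean CPM over 20 libraries (log axis) of each of the 100 transcripts by abundance rank, and bars run between its lowest and highest library. The mean falls 26.3-fold between rank 1 and rank 100, with no gap at the end of the list, and the longest bar is that of Nfu_g_1_007038 at rank 57, 118.9-fold from end to end.

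The most abundant transcript, Nfu_g_1_014314, had 37112, 36552, 43778, 32369 and 28830 CPM in 27-week run A and 48006, 48042, 46594, 55234 and 42537 CPM in run B. It had 43718, 47213, 38557, 33228 and 39873 CPM in exercised 9-week livers and 42157, 35939, 42290, 56929 and 29100 CPM in unexercised 9-week livers. It was the highest in 15 of the 20 libraries and at rank 2 in the others, and the unexercised 9-week values extended beyond the exercised ones at both ends. Exercise at 9 weeks gave a log2 fold change of 0.18 with an adjusted p of 0.667 (quasi-likelihood F-test of edgeR, adjusted by Benjamini-Hochberg over every gene tested, as for each adjusted p here unless another tool is named).

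Second in abundance, Nfu_g_1_015843 had 34293, 36335, 32325, 44546 and 41833 CPM in run A and 36730, 54022, 36053, 37799 and 42464 CPM in run B. Exercised 9-week livers had 27965, 23252, 21957, 35028 and 20409 CPM, and unexercised 9-week livers had 23398, 22888, 21802, 29597 and 15167 CPM. Every 27-week library exceeded every unexercised 9-week library, and 1 exercised 9-week library, replicate 4, reached into the 27-week range. Against exercised 9-week livers the log2 fold change at 27 weeks was 0.49 (adjusted p = 0.0983), and against unexercised ones it was 0.88 (adjusted p = 0.0303).

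Next came Nfu_g_1_005996, with 27871, 36537, 37939, 9257 and 21938 CPM in run A and 42413, 34611, 39436, 34089 and 47949 CPM in run B. It had 28374, 24192, 33963, 9088 and 12056 CPM in exercised 9-week livers, against 16428, 9504, 10722, 10348 and 10110 CPM in unexercised 9-week livers. At 9 weeks, 3 exercised libraries were above all unexercised ones, exercised replicate 5 lay within the unexercised range and exercised replicate 4 below it. The log2 fold change with exercise was 1.16 with an adjusted p of 0.0763, and at 27 weeks against unexercised 9-week livers it was 1.69 (adjusted p = 0.0167).

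Because a long transcript collects more reads than a short one at the same number of molecules, the CPM ranks order transcripts by reads, and levels of different transcripts were set side by side per kilobase of length. The length of each of the 100 was taken from the deposited length-scaled table. A length was worked out only for the 15032 identifiers with a deposited value above 1 in at least 1 library. The 100 had a median length of 2268.5 bp, ranging between 381 and 11777 bp, against 2502 bp over all identifiers with a length and 1274 bp in the next 100 by mean CPM. Of the 100, 20 were shorter than 1000 bp, close to the 20.2% of all identifiers with a length. Per kilobase, Nfu_g_1_014314 was again first at 52877 RPKM (CPM divided by length in kilobases), with a length of 783 bp. Behind it came the transcripts of abundance rank 7 (20259 RPKM), 9 (15906 RPKM), 33 (9761 RPKM) and 6 (8598 RPKM), while those of rank 2 and 3 by CPM, 6210 and 4361 bp long, stood at 5136 and 5696 RPKM. In all, 52 of the 100 were also among the 100 highest per kilobase, and all 100 were among the 1000 highest.

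Membership of the list was not the same in every library. In 53 cases the transcript was among the own 100 highest of all 20 libraries, in 80 cases of at least 15 libraries, and in 3 cases of fewer than 10 libraries. Own lists of single libraries held 77 to 88 of the 100 in run A and 85 to 93 in run B, against 91 to 94 in exercised 9-week livers and 86 to 90 in unexercised 9-week livers. Together the 20 own lists named 170 identifiers. Since 10 of the 20 libraries behind the mean are 27-week ones, the list was also made with the groups weighted equally: it then shared 98 of the 100.

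Within sets of like libraries, the 100 varied less than genes in general and more than the next 100. Their median coefficient of variation (CV, SD over mean) of CPM was 20.3% in run A, 13.6% in run B, 13.3% in exercised 9-week livers and 20.4% in unexercised 9-week livers. In the same order the next 100 had medians of 14.7, 10.9, 8.66 and 12.1%, and all 14806 identifiers with at least 1 CPM in 5 or more libraries had 26.7, 20.3, 17.1 and 22.5%. Counting error is larger at low counts, which the 14806 include and the 100 do not, and its part in the CV was not separated. A CV above 50% was found for 13 of the 100 in run A, 5 in run B, 5 in exercised and 15 in unexercised 9-week livers.

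The ends of the spread over all 20 libraries were far apart. Nfu_g_1_005294 (rank 36) had the lowest CV, 11.5%, and its values ran between 2692 and 4178 CPM. Nfu_g_1_013746 (rank 94) was next at 12.3%, between 1199 and 1887 CPM. At the other end, Nfu_g_1_021170 (rank 22) had a CV of 123% and Nfu_g_1_007038 (rank 57) had 84.2%.

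Nfu_g_1_021170 had 1422, 2232, 1750, 3502 and 2105 CPM in run A and 2159, 2251, 2184, 2632 and 2186 CPM in run B. Exercised 9-week livers had 4188, 4274, 2878, 24635 and 4591 CPM, and unexercised 9-week livers had 4412, 5153, 6148, 22625 and 3321 CPM. A single library of each 9-week group stood far above its 4 companions, replicate 4 in both, a number that does not pair libraries here. The transcript on the row next to it in the deposited table (rank 41) had a correlation with it of r = 0.89 over the 20 libraries, as log2 CPM and with no test.

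Nfu_g_1_007038 had 80, 55, 80, 206 and 56 CPM in run A and 1115, 888, 914, 1786 and 1221 CPM in run B. It had 5002, 4715, 3680, 5848 and 4070 CPM in exercised 9-week livers and 6520, 3280, 3691, 3544 and 3255 CPM in unexercised 9-week livers. Its highest value was 118.9 times its lowest, and its rank among all identifiers in a library ran between 13 and 2460. Neither title run of 27-week libraries overlapped with a 9-week group or with the other run. It is in the list through its 9-week levels. All of run A and most of run B lay below 1574 CPM, the mean of the last transcript inside.

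**Figure D3:**
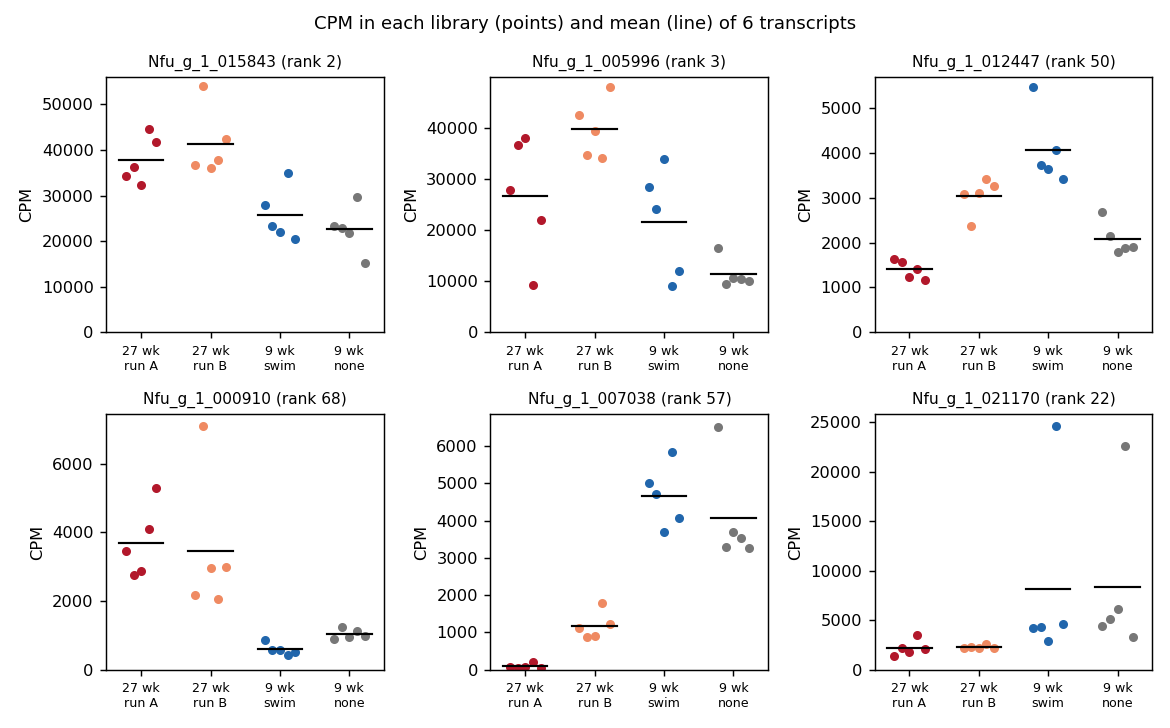
CPM of 6 of the transcripts described by identifier, 1 point per library and a line at the mean of each set, with 27-week runs A and B left of the 9-week groups. Nfu_g_1_007038 lies between 55 and 206 CPM in run A, and at 3255 CPM or more in every 9-week library.

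At 9 weeks, 7 of the 100 transcripts were higher in exercised than in unexercised livers and 0 were lower (adjusted p under 0.05). Each 9-week group also has its own run of title numbers, so exercise and title run cannot be told apart. Over all 16304 genes tested, 2.86% were called higher and 4.87% lower in exercised livers, so the share of members called higher was above the background and the share called lower below it. At an unadjusted p under 0.05, 40 of the 100 were higher and 1 lower, and 88 had a positive log2 fold change. The median log2 fold change of the 100 was 0.31 and that of the next 100 by abundance was also 0.31, of which 10 rose and 0 fell. The median over all genes tested was 0.01.

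The 7 transcripts that rose held ranks 11, 12, 16, 26, 50, 73 and 76. Nfu_g_1_012447 (rank 50) had 5468, 3720, 3631, 4072 and 3405 CPM in exercised livers, against 2675, 2151, 1797, 1874 and 1903 CPM in unexercised livers. All exercised libraries were above all unexercised ones, with a log2 fold change of 1.21 ± 0.19 (SE) and an adjusted p of 0.0123. At 27 weeks it had between 1169 and 1641 CPM in run A and between 2366 and 3421 CPM in run B.

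Nfu_g_1_022309 (rank 12) had 12550, 8723, 10377, 8591 and 9181 CPM in exercised livers, against 8294, 4824, 5391, 3855 and 4292 CPM in unexercised livers. The groups did not overlap, although unexercised replicate 1 came close to the lowest exercised libraries. Its log2 fold change was 1.14 ± 0.22 (SE) with an adjusted p of 0.0193. The call was lost without exercised replicate 1 (adjusted p = 0.0554) or exercised replicate 3 (adjusted p = 0.0510). In a fit of all 20 libraries in 3 groups no member was called, so this call and that of Nfu_g_1_012447 were lost there.

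How many of the 100 passed at 9 weeks depended on the tool and on single libraries. DESeq2's Wald test called 33 higher and 1 lower, and limma-voom with sample weights called 31 higher and 0 lower. Of all 16304 genes tested, they called 1077 and 934 higher and 1338 and 1237 lower, in that order. A fit of all 20 libraries in 3 groups, which shares 1 estimate of spread with the 27-week libraries, called 0, with 9 higher and 0 lower at an unadjusted p under 0.05 and a lowest adjusted p of 0.218. That fit called only 2 genes higher and 1 lower of 17118, so its 0 is no result about the members. With runs A and B as separate sets, the fit of all 20 libraries called 5 higher and 0 lower. It called 311 of 17118 genes higher and 749 lower. Calls numbered 1 without exercised replicate 1 or 3, 2 without exercised replicate 2 or unexercised replicate 5, 3 without unexercised replicate 2 or 3, and 20 without unexercised replicate 4. Over all genes, calls moved the same way, starting at 467 higher and 794 lower with all 10 libraries. They fell to 106 and 214 without exercised replicate 3, and to 95 and 220 without exercised replicate 2. Without exercised replicate 1 only 51 genes were called higher. Calls were 204 and 498 without unexercised replicate 2, and fell also without unexercised replicate 3 or 5. Without unexercised replicate 4 they rose to 532 and 961.

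Fold changes here are on the TMM scale, which sets libraries level by a trimmed mean of their log ratios over genes, whereas CPM is per library total. Scaled by library totals, the median log2 fold change with exercise was 0.06 for the 100 and -0.25 for all genes tested, and 5 of the 100 were called higher and 1 lower. Of all 16304 genes tested, 95 were then called higher and 2126 lower. Nfu_g_1_012447 and Nfu_g_1_022309 then had log2 fold changes of 0.96 and 0.89. On both scales the median of the 100 was above that of all genes tested.

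Among exercised fish, 2 of the 100 transcripts were higher at 27 weeks than at 9 weeks and 7 were lower. The 9-week and 27-week libraries have separate runs of title numbers, so age and title run cannot be told apart. The background was larger, with 15.9% of 16794 genes tested called higher at 27 weeks and 8.93% called lower. The median log2 fold change of the 100 was -0.34 and that of the next 100 was -0.33, against 0.09 over all genes tested. The 10 libraries at 27 weeks enter this comparison as 1 group although their title runs differ, and their spread includes the difference between the runs. By library totals 6 of the 100 were called higher and 12 lower, with medians of -0.23 for the 100 and 0.27 for all genes. Of all 16794 genes, 2452 were then called higher and 1001 lower. A fit of all 20 libraries in 4 sets, with runs A and B apart, called 4 higher and 51 lower. Its background was larger too, with 3749 of 17118 genes called higher and 3873 lower. Without 27-week replicates 4 and 5, 2 were called higher and 8 lower. Of 16553 genes tested, 1814 were then called higher and 1539 lower.

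Nfu_g_1_000910 (rank 68) had 3449, 2774, 2877, 4104 and 5307 CPM in run A and 2176, 7104, 2966, 2050 and 2983 CPM in run B. Exercised 9-week livers had 855, 584, 584, 435 and 518 CPM, and unexercised 9-week livers had 895, 1238, 965, 1120 and 987 CPM. Every 27-week library exceeded every 9-week library. It is in the list through its 27-week levels, as no 9-week library reached 1574 CPM, the mean of the last transcript inside. At 27 weeks against exercised 9-week livers its log2 fold change was 2.43 ± 0.31 (SE), with an adjusted p of 6.9e-04.

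Nfu_g_1_018164 (rank 13) had 8747, 7509, 10387, 3959 and 4808 CPM in run A and 17313, 8294, 10296, 13708 and 7653 CPM in run B. It had 2065, 2326, 3398, 4336 and 6708 CPM in exercised 9-week livers and 4420, 6430, 6574, 5172 and 7376 CPM in unexercised 9-week livers. The 27-week and exercised 9-week libraries overlapped, since 27-week replicates 4 and 5 lay below exercised 9-week replicate 5. Its log2 fold change of 1.24 ± 0.43 (SE) had an adjusted p of 0.0462, and the call was lost in 16 of 22 alternatives, with an adjusted p of up to 0.114. Against unexercised 9-week livers the log2 fold change at 27 weeks was 0.81 and was not called (adjusted p = 0.152).

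Of those that fell, Nfu_g_1_007038 had a log2 fold change of -2.81 ± 0.81 (SE) at 27 weeks against exercised 9-week livers (adjusted p = 0.0221), its title runs differing from each other as given above. Nfu_g_1_021170 had -2.01 ± 0.41 (SE) with an adjusted p of 0.00425. That value rested in part on a single library: without exercised 9-week replicate 4 it was -0.96 (adjusted p = 0.0125), and limma-voom gave -1.26 (adjusted p = 0.0232). The other members that fell held ranks 34, 40, 41, 59 and 84, with log2 fold changes between -1.25 and -0.65. Those of ranks 59 and 84 lay below 1574 CPM in all of run A, so their falls are not free of the selection.

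Set against unexercised 9-week livers, the 27-week livers differed in age, exercise and title run, which cannot be told apart here. This comparison shares its 27-week libraries with the one before it. Of the 100 transcripts, 5 were higher and 2 lower, where 8.19% of 16635 genes tested were called higher and 5.27% lower. The median log2 fold change of the 100 was -0.03, and its sign changed with some of the settings tried. By library totals 6 were called higher and 7 lower, by upper-quartile scaling 3 higher and 2 lower, and without 27-week replicates 4 and 5, 7 higher and 2 lower. Over all genes tested, these settings called 442, 1010 and 981 higher and 1122, 1104 and 937 lower, in that order. Calls numbered 3 without unexercised replicate 3 or 5 and 4 without unexercised replicate 1 or 2. Calls over all genes fell too, to 424 higher and 344 lower without replicate 3 and 521 and 402 without replicate 5. They were 572 and 506 without unexercised replicate 1, and 659 and 538 without unexercised replicate 2.

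Nfu_g_1_010874 (rank 33), the shortest of the 100 at 381 bp, had 7702, 7330, 8530, 3927 and 5887 CPM in run A and 4703, 4684, 3388, 5044 and 2659 CPM in run B. It had 2256, 1443, 1574, 766 and 1670 CPM in unexercised 9-week livers, all below the 27-week values. The log2 fold change was 1.89 ± 0.30 (SE) with an adjusted p of 0.00258. The unexercised 9-week values lay on both sides of 1574 CPM, the mean of the last transcript inside. This rise is therefore not free of the selection. Exercised 9-week livers spanned 878 to 3938 CPM and so reached into the 27-week range. Nfu_g_1_000910 was also higher than in unexercised 9-week livers, by 1.85 ± 0.30 (SE) on the log2 scale (adjusted p = 0.00267), and the other members called higher held ranks 2, 3 and 98. That of rank 98 is in the list through its 27-week levels. Its 9-week libraries held 853 to 1426 CPM, all below 1574 CPM, the mean of the last transcript inside.

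Of the 2 members lower at 27 weeks than in unexercised 9-week livers, Nfu_g_1_021170 had a log2 fold change of -1.94 ± 0.41 (SE, adjusted p = 0.0096), -0.94 without unexercised replicate 4 and -1.19 by limma-voom. Nfu_g_1_023068 (rank 59) had 938, 972, 924, 943 and 897 CPM in run A and 1991, 1460, 1938, 2299 and 1944 CPM in run B, against 4663, 4336, 3584, 2606 and 3538 CPM in unexercised 9-week livers. No 27-week library reached the unexercised range, and run A lay below run B. Its log2 fold change was -1.19 ± 0.35 (SE, adjusted p = 0.0351), lost in 8 of 22 alternatives, in each of which 1 library was left out, with an adjusted p of up to 0.10. All of run A lay below 1574 CPM, the mean of the last transcript inside, so this fall is not free of the selection.

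Taken by title run, the 27-week livers gave different counts of members called. In run A against exercised 9-week livers, 1 of the 100 transcripts was higher and 64 were lower. Over all 16462 genes tested, 31.6% were called higher and 23.6% lower, so members were called lower more often and higher less often than genes in general. Members called lower include those of ranks 59, 92 and 94, all below 1574 CPM in every library of run A. They are in the list through other libraries, so these counts are not free of the selection. The median log2 fold change was -0.79 for the 100 and -0.81 for the next 100, of which 3 rose and 75 fell, against 0.09 over all genes tested. With library totals the median of the 100 was -0.41 and that of all genes 0.50, with 5 members higher and 54 lower. Of all 16462 genes, 7176 were then called higher and 1969 lower.

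The single member that rose in run A was Nfu_g_1_000910, with a log2 fold change of 2.22 ± 0.21 (SE, adjusted p = 1.3e-05). Nfu_g_1_007038 fell furthest, by 6.05 on the log2 scale with an SE of 0.40 (adjusted p = 1.9e-06). Nfu_g_1_008031 (rank 77) had 278, 295, 602, 722 and 307 CPM in run A and 1981, 1288, 2000, 2239 and 3174 CPM in run B. It had 2187, 2350, 2286, 2639 and 2701 CPM in exercised 9-week livers and between 2910 and 2995 CPM in unexercised ones. Run A overlapped with no other set, and the log2 fold change against exercised 9-week livers was -2.86 ± 0.29 (SE, adjusted p = 2.3e-05). This transcript is in the list through the other sets, as all of run A lay below 1574 CPM, the mean of the last transcript inside. Its fall in run A is therefore not free of the selection. Without 27-week replicates 4 and 5, the libraries with the lowest share, 3 members were called higher and 65 lower. Of 16833 genes tested, 4285 were then called higher and 4225 lower.

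In run B against exercised 9-week livers, 6 of the 100 were higher and 6 lower, where 10.7% of 16145 genes tested were called higher and 8.12% lower. The median log2 fold change of the 100 was -0.01 and that of the next 100 was 0.01. By library totals 5 were called higher and 8 lower, and by upper-quartile scaling 5 higher and 9 lower. Of all 16145 genes, these scalings called 1301 and 1477 higher and 1711 and 1588 lower, in that order. Nfu_g_1_000910 was higher by 2.60 ± 0.35 (SE) on the log2 scale (adjusted p = 0.00189) and Nfu_g_1_018164 by 1.69 ± 0.33 (SE, adjusted p = 0.00762). The other members that rose held ranks 2, 7, 89 and 98, with log2 fold changes between 0.33 and 1.12. That of rank 98, like Nfu_g_1_000910, is in the list through its 27-week levels, so its rise is not free of the selection.

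Nfu_g_1_007038 had a log2 fold change of -1.89 ± 0.22 in run B (SE, adjusted p = 0.00159). Nfu_g_1_011319 (rank 34) had 1134, 2244, 1755, 2423 and 3404 CPM there, against 4811, 6276, 4427, 4477 and 3906 CPM in exercised 9-week livers. The sets did not overlap, and the log2 fold change was -1.03 ± 0.26 (SE, adjusted p = 0.0222), with the call lost without exercised 9-week replicate 2 (adjusted p = 0.0541). Unexercised 9-week livers held 2317 to 12029 CPM of it, the highest value being in replicate 5. The remaining 4 that fell held ranks 40, 59, 83 and 84. Those of ranks 83 and 84 lay below 1574 CPM in most of run B, so their falls are not free of the selection.

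Both title runs were set against the same exercised 9-week libraries, and the difference between the runs was tested directly. In run A against run B, 0 of the 100 transcripts were higher and 71 were lower, where 25.9% of 16157 genes tested were called higher and 20.1% lower. At an unadjusted p under 0.05, 0 were higher and 75 lower. DESeq2 called 0 higher and 76 lower, and limma-voom called 0 higher and 73 lower. Of all 16157 genes, they called 4252 and 4123 higher and 3900 and 3673 lower, in that order. The median log2 fold change was -0.83 for the 100 and -0.82 for the next 100, of which 1 was higher and 75 lower, against 0.11 over all genes tested. By library totals the median of the 100 was -0.35 and that of all genes 0.60, and 2 of the 100 were called higher and 52 lower. Of all 16157 genes, 7468 were then called higher and 1359 lower.

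Between the runs, Nfu_g_1_007038 was lower in run A by a log2 fold change of -4.16 ± 0.39 (SE, adjusted p = 4.4e-05) and Nfu_g_1_008031 by -2.78 ± 0.34 (SE, adjusted p = 1.7e-04). Neither change is free of the selection, since both transcripts lay below 1574 CPM in all of run A. The other members called lower had log2 fold changes nearer to 0, the smallest being -0.46. Those of ranks 59, 92, 94 and 96 also lay below 1574 CPM in all of run A. The count of 71 is therefore not free of the selection either. The most abundant transcript was among those called lower, with -0.88 (adjusted p = 0.00494), and so was the second, with -0.62 (adjusted p = 0.00465). These values are on the TMM scale. Per library total, the most abundant averaged 35728 CPM in run A and 48082 CPM in run B. The second averaged 37866.5 and 41413.6 CPM, a smaller difference. For both transcripts the CPM of the runs overlapped. The third had -0.98 with an adjusted p of 0.0547. Only 9 of the 100 had a positive log2 fold change between the runs, and none of these 9 had an unadjusted p under 0.05 on the TMM scale. Without replicates 4 and 5, 1 member was called higher and 69 lower. Of 16470 genes tested, 3515 were then called higher and 3140 lower.

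**Figure D4:**
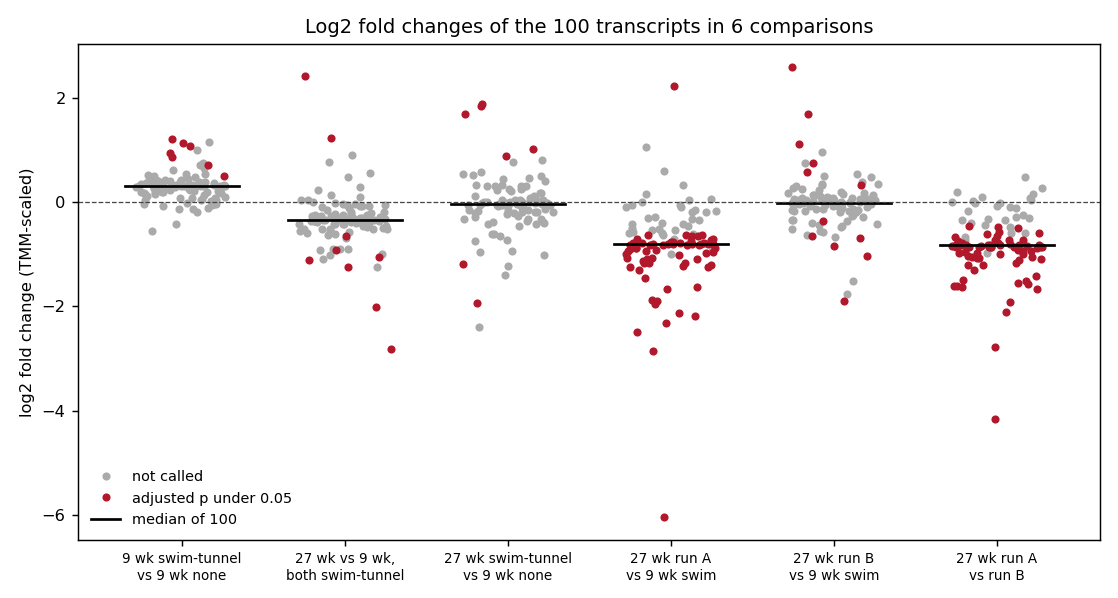
Log2 fold changes (TMM scale) of the 100 transcripts in the 6 comparisons, 1 point per transcript, with those past an adjusted p of 0.05 marked. The points of run A against exercised 9-week livers and against run B centre at -0.79 and -0.83, and those of run B against exercised 9-week livers centre at -0.01.

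Levels of the 100 also moved together in sets. Over the 4950 pairs, the Pearson correlation of log2 CPM, centred on each set of libraries, had a median of 0.02, and 156 pairs reached 0.9. Linking these 156 pairs put 36 of the 100 into 5 groups, of 18, 11, 3, 2 and 2 transcripts. These groups were formed after their values were seen and are given without a test. All values of a library share its total, its depth and its composition.

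The group of 18 held ranks 37 to 96, with mean levels between 1627 and 3389 CPM and a CV over all libraries between 12.3 and 16.7%. Their correlations within sets had a median of 0.92 and a lowest value of 0.77. Together they took 3.20% ± 0.34 of the counts in run A and 4.10% ± 0.38 in run B, against 4.31% ± 0.20 in exercised and 4.07% ± 0.29 in unexercised 9-week livers (SD, n = 5 each). Their median length was 1418 bp. All 18 were called lower in run A than in run B, with log2 fold changes between -0.87 and -0.79 on the TMM scale and between -0.39 and -0.31 by library totals. In that comparison 71 of the 100, 75 of the next 100 and 20.1% of all genes tested were called lower. Since the 18 were linked by their correlation, their calls are not independent of each other. Some, such as that of rank 94, lay below 1574 CPM in all of run A, so their calls are not free of the selection. With exercise at 9 weeks their log2 fold changes lay between 0.26 and 0.40 on the TMM scale and between 0.02 and 0.15 by library totals. By edgeR 0 of the 18 passed, all 18 having an unadjusted p under 0.05, whereas DESeq2 and limma-voom each called 17 higher. These 2 tools called 33 and 31 of the 100 higher with exercise, and 1077 and 934 of all 16304 genes. In run B against exercised 9-week livers 0 passed by any of the 3 tools and 0 had an unadjusted p under 0.05, at log2 fold changes between -0.18 and 0.07.

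Some transcripts outside the list followed the same course. Among 931 identifiers with a mean of at least 100 CPM, 71 kept a log2 ratio to the mean course of the 18 that varied with an SD under 0.1 over the 20 libraries. The 71 include the 18 themselves, whose mean sets the course. Of the 71, 19 were among the 100, so 1 further member, and 40 among the next 100, and their median length was 840 bp. The identifiers carry no names, so the kind of gene was not read.

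The group of 11 held ranks between 10 and 83, averaged 1889 to 7820 CPM and varied more, with a CV between 35.04 and 66.5%. It took 7.09, 5.50, 4.90, 1.76 and 2.21% of the counts in run A and 1.63, 3.68, 2.84, 2.83 and 5.31% in run B. Exercised 9-week livers gave 4.42, 5.33, 5.06, 4.58 and 5.44%, and unexercised 9-week livers gave 2.96, 2.91, 4.48, 4.81 and 11.2%. The exercised 9-week libraries were close to each other, and the other sets spread more widely, with unexercised replicate 5 far above the rest. Of the 11, 0 were called with exercise at 9 weeks and 0 between the title runs by edgeR, DESeq2 or limma-voom. At an unadjusted p under 0.05 there were 0 by edgeR in either comparison, and 1 by limma-voom, higher with exercise. In run B against exercised 9-week livers all 11 had negative log2 fold changes, between -1.03 and -0.27, and each of the 3 tools called 2 lower. In run A against the same livers edgeR called 1 lower, and with the 27-week livers as 1 group it also called 1 lower. Within sets the 11 ran against the 18, with correlations between -0.72 and -0.37 and a median of -0.56. Over all 20 libraries, without centring on sets, the median between them was -0.18.

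Of the smaller groups, the 3 transcripts of ranks 8, 18 and 24 sit on consecutive rows of the deposited table. The pairs were ranks 2 and 52 and ranks 7 and 29. In all, 5 pairs among the 100 sat on neighbouring rows, with correlations over the 20 libraries between 0.89 and 0.99. What the order of rows stands for is not given in the sources used here, and near-identical copies whose reads could be split or shared were not looked for without sequences.

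**Figure D5:**
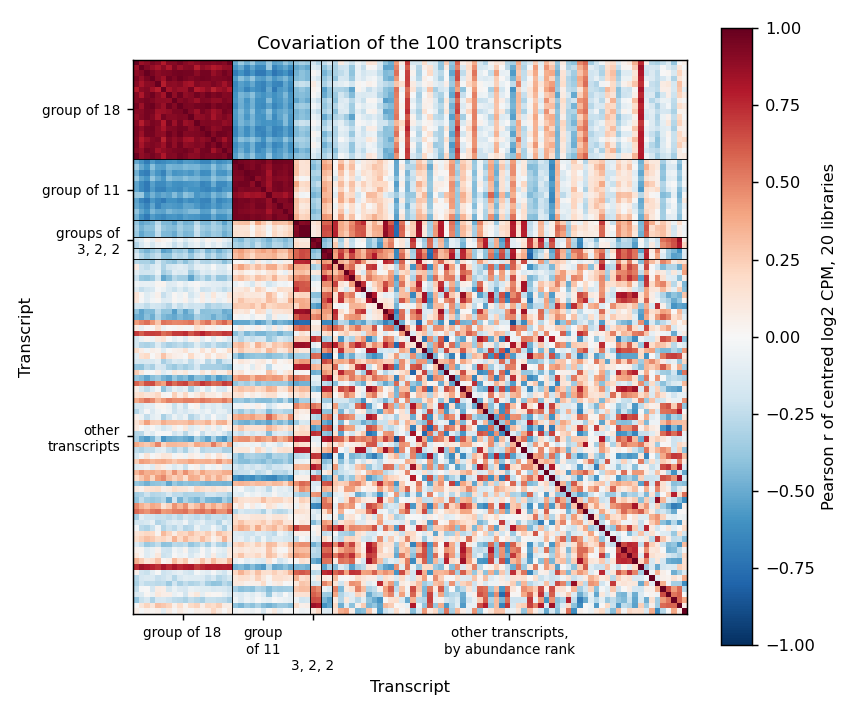
Pearson correlation of log2 CPM, centred on each set of libraries, for every pair of the 100 transcripts over 20 libraries, ordered by the groups of 18, 11, 3, 2 and 2 and then by rank. The groups of 18 and 11 form red squares on the diagonal and blue rectangles off it, at a median of -0.56 between them.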

How the data were processed

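Liver RNA-seq libraries were prepared with Illumina's TruSeq RNA kit, per the labels' protocols. The submitters' processing notes name STAR 2.4.1d and featureCounts 1.4.6-p4, after bcl2fastq 1.8.4. The genome build, annotation, strand setting and treatment of multi-mapping reads: not given in the sources used here. The authors deposited raw counts per gene identifier for the 20 libraries and a table of RPKM. The deposited RPKM values did not match the library totals of their own columns, so they were treated as a score and used only for gene lengths, which then came out the same in every library (largest CV for a member 0.000166%).

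Libraries were grouped by the labelled age and exercise, and the 27-week group was also divided by title numbers. Each comparison was fitted on its own libraries with edgeR 4.0.16 (TMM, filterByExpr, robust quasi-likelihood F-test, two-sided, R 4.3.3), with p-values adjusted over all genes tested. DESeq2 1.42.0, limma-voom 3.58.1, other scalings and filters, and leaving out libraries were alternatives. The transcripts named by identifier are the 3 most abundant, the 2 most and 2 least variable, and in each comparison up to 2 called higher and 2 called lower with the largest fold change; others are given by rank. Members and rules were chosen with earlier results of these data known. No identifier matched the RefSeq table (assembly NfurGRZ-RIMD1), so no names, sequences or positions are given.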

Additional observations from a re-analysis of the deposited data

Results flagged for a closer look

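Over 85 groups of 5 or 10 values (the share of counts and the transcripts named by identifier), the highest or lowest library stood apart from its companions in 10. Chance flags about 1 in 20 such groups when they are independent and chosen without regard to their spread. These groups were neither. Some transcripts were named because they varied most, and runs A and B were counted both apart and together. The 10 flags therefore cannot be set against chance.

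In run A (27-week replicates 1 to 5), replicate 4 had 205.7 CPM of Nfu_g_1_007038, where the other 4 libraries had 54.8 to 80.0 CPM. It also had 3623 CPM of Nfu_g_1_005294, above 2692 to 2939 CPM in the others. In run B (27-week replicates 6 to 10), replicate 9 had 2632 CPM of Nfu_g_1_021170, above 2159 to 2251 CPM, and replicate 7 had 7104 CPM of Nfu_g_1_000910, above 2050 to 2983 CPM.

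Among exercised 9-week livers, replicate 5 gave the 100 transcripts 48.2% of its counts, below 50.8 to 51.3% in the others. Replicate 4 had 24635 CPM of Nfu_g_1_021170, above 2878 to 4591 CPM, and replicate 3 had 4178 CPM of Nfu_g_1_005294, above 3207 to 3475 CPM. Among unexercised 9-week livers, replicate 1 had 16428 CPM of Nfu_g_1_005996, above 9504 to 10722 CPM. The same library had 6520 CPM of Nfu_g_1_007038, above 3255 to 3691 CPM. Replicate 4 had 22625 CPM of Nfu_g_1_021170, above 3321 to 6148 CPM.

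The change of 27-week livers against exercised 9-week livers differed between the title runs, by edgeR's test of the runs themselves, in 71 of the 100 transcripts. All 71 were lower in run A, where 20.1% of all genes tested were called lower and 25.9% higher. Some of the 71 lay below 1574 CPM in all of run A, so this count is not free of the selection. The log2 fold change of run A against run B was -4.16 for Nfu_g_1_007038, -2.78 for Nfu_g_1_008031 and -1.10 for the transcript of rank 13.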

How the results depend on the processing

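The number of the 100 transcripts called moved by over 1.5 times in the 3 comparisons of groups. Calls over all genes moved as well. With exercise, the fit of all 20 libraries in 3 groups called 2 higher and 1 lower of 17118 genes. With no filter, 310 of 22206 genes were called higher with exercise and 652 lower. For exercise at 9 weeks the number of the 100 called was 7, against 3 with no filter on low counts, 34 by DESeq2, 31 by limma-voom, 0 in a fit of all 20 libraries in 3 groups, 5 in a fit of them in 4 sets, and 1 to 20 with a library left out. For 27 weeks against exercised 9 weeks it was 9, against 18 by library totals, 15 by DESeq2, 17 by limma-voom and 55 in a fit of all 20 libraries in 4 sets. Of all 16794 genes, DESeq2 called 3283 higher and 2161 lower there, and limma-voom 2839 and 2132. For 27 weeks against unexercised 9 weeks the number of the 100 called was 7, against 13 by library totals, 11 by DESeq2, 15 by limma-voom, 20 in the fit of 4 sets, and 3 to 9 with a library left out. Of all 16635 genes, DESeq2 called 2211 higher and 1504 lower there, and limma-voom 1843 and 1639. The fit of 4 sets called 3020 of 17118 genes higher and 3069 lower. In the comparisons by title run the counts stayed within 1.5 times.

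Medians near 0 changed sign: against unexercised 9 weeks the median of -0.03 became 0.14 by limma-voom and 0.072 without 27-week replicates 4 and 5, and ran between -0.10 and 0.015 with a library left out. In run B against exercised 9 weeks it ran between -0.065 and 0.036 with a library left out. The share of the 100 in exercised 9-week livers, 50.4%, was 48.3% with the most abundant transcript left out of both the list and the library totals. That transcript alone took 4.05% of all counts in these livers. The cause of these shifts was not tested. No paired analysis was possible because the labels give no number shared between groups. Depth does not limit the 100, whose lowest value is 1909 counts.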
